A study of Mus musculus with 7 samples.

Results

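Mitochondrial ribosomal proteins are encoded in the nucleus, made in the cytosol and imported into mitochondria, where they assemble with the mitochondrially encoded rRNAs mt-Rnr1 (small subunit) and mt-Rnr2 (large subunit) into the mitochondrial ribosome. This ribosome translates only the mRNAs of the mitochondrial genome, all of which encode subunits of the oxidative phosphorylation complexes, and heart muscle relies heavily on those complexes. Some of its proteins descend from bacterial ribosomal proteins and others are found only in mitochondria. The genes were taken by name alone, as every protein-coding row called Mrpl or Mrps followed by a digit. This gave 78 genes, 49 named for the large subunit (Mrpl) and 29 for the small subunit (Mrps), among 21960 nuclear protein-coding genes and 49584 listed features. Subunits are given by name throughout. By structure Mrps18a and Mrps30 belong to the large subunit and Mrps36 to neither, and values with that assignment stand at the end.

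Their counts came from small RNA sequencing of crude heart mitochondria, in a comparison that asks which RNAs differ when the mitochondrial transcription elongation factor Tefm is missing. The 3 controls are labelled L/L with the genotype Tefm +/+ and the 4 knockouts L/L, cre with the genotype Tefm -/-. Both groups carried loxP sites around a Tefm exon. In the knockouts cre was driven by the promoter of muscle creatine kinase, active in cardiomyocytes and skeletal muscle, so that other cells of the heart keep the gene. The ages of the mice are not given in the labels. The design text counts 4 control mice, and the 3 present among the samples were analysed. Each library was treated as a separate mouse. Should libraries share a mouse, p-values measure only the spread between libraries.

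Total counts ran from 973835 to 2570739 per library, and nuclear protein-coding genes held between 2.28% and 18.2% of them, the lowest in knockout 1 and the highest in knockout 4. Reads at mRNAs in a small RNA library are short fragments, so a count at one of these genes stands at most for a fragment of its transcript. Where the exons of a gene overlap another gene, the source of its counts is uncertain. Tefm itself had 3 counts in all controls and 3 in all knockouts, too few to check the genotype. The 10 cardiomyocyte markers all had counts in these libraries, with Myh6, the cardiac myosin heavy chain, the most counted at 14411. Of nuclear protein-coding counts they held 9.14% ± 0.943 (SD, n = 3 controls) and 4.70% ± 0.619 (SD, n = 4 knockouts), without overlap. In the gene test described below, edgeR called 0 of these 10 at its default filter. Their log2 fold changes ran from -2.16 for Atp2a2 to 0.05 for Actn2, the 1 positive value. In bulk samples of crude mitochondria fewer cells of a type, less RNA per cell and less RNA entering the preparation cannot be told apart.

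The mitochondrial ribosomal protein genes were widely detected and thinly covered. Of the 78 genes 76 had a count in at least 1 library (97.4%), compared with 58.7% of nuclear protein-coding genes, and 24 had a count in every library. Mrpl27 and Mrpl53 were at 0 throughout. All 78 together drew 1602 counts, 687 in controls and 915 in knockouts, with a median of 17 counts per gene over the 7 libraries. Only 32 genes reached 20 counts in all, and 7 had 3 counts or fewer. The number of genes seen in a library ran from 46 in knockout 1, which had the fewest nuclear protein-coding counts, to 71 in control 2.

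Promoter sequence was examined as a property that the choice by name did not use. RefSeq (GRCm38.p6) gave 75 promoters for 69 of the 78 genes, each from 250 bases before to 50 after the start. Known regulators of nuclear genes for mitochondrial proteins include ETS factors such as GABP (NRF-2), the nuclear respiratory factor NRF1 and YY1. The ETS letters CCGGAAG, searched on both strands, stood in 26 promoters (34.7%), against 8.86% of all 32851 promoters in the table. The YY1 letters AAGATGGC stood in 12 (16%, against 2.75% of all) and the NRF1 letters GCATGCGC in 8 (10.7%, against 2.71%). At least 1 of these motifs stood in 50.7% of the promoters of the ribosomal protein genes and in 13.3% of all promoters, and some promoters held more than 1. The letters TGATGNAA, searched for ATF4, stood in none of the 75 and in 3.97% of all. Both subunits carried the ETS letters, in 15 of 48 large and 11 of 27 small subunit promoters.

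The promoters of the 4 genes with the most counts are shown as examples, 5′ to 3′, each cut to 280 bases so that 30 follow the start. Capitals mark ETS letters, which stand in 2 of the 4, and read CTTCCGG where the match lies on the other strand. The full Mrpl42 promoter is among the 12 with the YY1 letters. There they reach into the bases cut off, so they are not shown in full or marked. Mrpl12 lies at chr11:120484387-120484666 (plus strand), Mrps23 at chr11:88204138-88204417 (plus), Mrpl42 at chr10:95501920-95502199 (minus) and Mrpl3 at chr9:105053018-105053297 (plus).
Mrpl12: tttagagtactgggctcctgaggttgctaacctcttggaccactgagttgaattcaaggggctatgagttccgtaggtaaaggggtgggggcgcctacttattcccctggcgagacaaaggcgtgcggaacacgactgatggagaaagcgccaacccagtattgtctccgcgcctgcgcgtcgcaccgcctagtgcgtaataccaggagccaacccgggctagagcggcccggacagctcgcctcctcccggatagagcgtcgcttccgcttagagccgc
Mrps23: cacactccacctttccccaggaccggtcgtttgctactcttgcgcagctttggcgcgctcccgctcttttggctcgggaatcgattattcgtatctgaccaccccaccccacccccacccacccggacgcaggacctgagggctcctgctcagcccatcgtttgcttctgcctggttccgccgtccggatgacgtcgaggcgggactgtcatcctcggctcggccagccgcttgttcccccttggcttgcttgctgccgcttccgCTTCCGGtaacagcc
Mrpl42: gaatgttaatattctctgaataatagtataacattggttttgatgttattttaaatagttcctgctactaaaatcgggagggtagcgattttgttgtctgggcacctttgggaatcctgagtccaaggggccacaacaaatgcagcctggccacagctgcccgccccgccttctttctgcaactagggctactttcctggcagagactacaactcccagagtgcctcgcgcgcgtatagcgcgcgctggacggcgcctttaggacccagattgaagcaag
Mrpl3: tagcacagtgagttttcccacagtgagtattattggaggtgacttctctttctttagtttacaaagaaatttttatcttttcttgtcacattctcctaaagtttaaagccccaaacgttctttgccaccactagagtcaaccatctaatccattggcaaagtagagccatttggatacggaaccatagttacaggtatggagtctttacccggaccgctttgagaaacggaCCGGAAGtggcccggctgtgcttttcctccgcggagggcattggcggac
The Mrps23 and Mrpl3 promoters hold the same letters in opposite orientations. A match is a description of the sequence and not a site, and no measurement here bears on binding.

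Levels can be compared between genes only per length. Per kilobase of annotated exon the median was 6.79 counts over all libraries for the 78 genes, against 2.73 for nuclear protein-coding genes with a count. Large subunit genes had a median of 8.04 counts per kilobase and small subunit genes 4.60. On this scale the highest genes were Mrpl54 with 53.3, Mrpl12 with 50.3 and Mrps23 with 48.1 counts per kilobase, followed by Mrpl2 with 28.2 and Mrpl28 with 27.5. Large subunit genes made up 62.8% of the genes and 69.7% of the counts. The order of genes was broadly alike in the groups, with a Spearman rho of 0.746 between control and knockout counts over the 78 genes. That value is a description across genes, which share libraries and exon lengths.

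As a share of all nuclear protein-coding counts, the genes held 0.305%, 0.199% and 0.268% in the controls, by replicate number. The knockouts, likewise by number, had 0.339%, 0.309%, 0.286% and 0.250%. Control 2 was the lowest library and knockout 1 the highest, but controls 1 and 3 lay within the range of the knockouts, so the groups overlapped. The means were 0.258% ± 0.0539 (SD, n = 3) and 0.296% ± 0.0375 (SD, n = 4), a ratio of 1.15, and a knockout library was between 0.820 and 1.70 times a control library. The difference between the means was smaller than the SD of the controls, and without control 2 the log2 difference was 0.04 in place of 0.22. Without control 1 it was 0.35. The Wilson 95% intervals ran from 0.178% to 0.222% in control 2 and from 0.279% to 0.413% in knockout 1, and they cover counting error only, since the labels name no molecular identifiers.

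**Figure D1:**
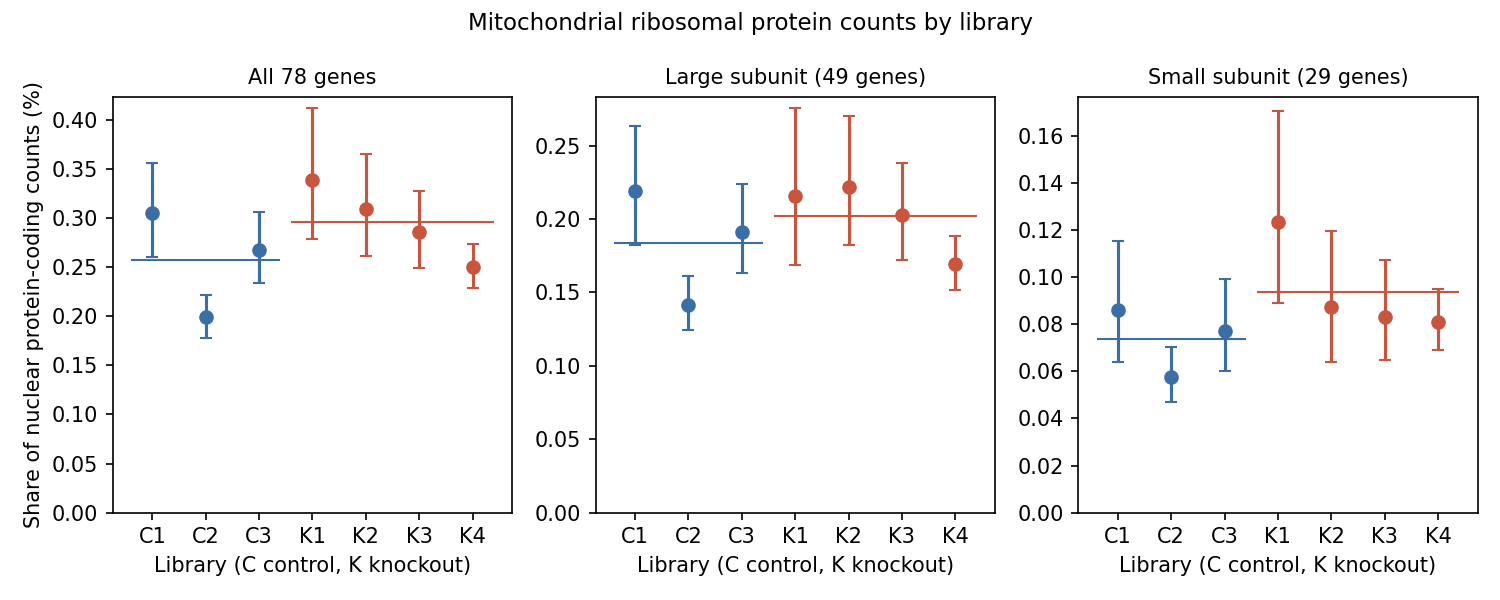
Share of nuclear protein-coding counts (%, y axis) held by all 78 genes, the 49 large subunit genes and the 29 small subunit genes in each library (x axis). Points are libraries, bars their Wilson 95% intervals and horizontal lines group means (n = 3 controls, 4 knockouts). Control 2 is the lowest library in all 3 panels, control 1 falls among the knockouts in all 3, and in the small subunit knockout 1 stands above the rest at 0.123%.

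The large subunit held 0.219%, 0.142% and 0.191% in the controls and 0.216%, 0.222%, 0.203% and 0.169% in the knockouts. Control 2 was below every other library and the other controls lay within the range of the knockouts, with means of 0.184% ± 0.0392 (SD, n = 3) and 0.202% ± 0.0236 (SD, n = 4). Without control 2 the log2 difference of the large subunit was -0.02 in place of 0.15, and without control 1 or knockout 4 it was 0.29 or 0.24. The small subunit held 0.0861%, 0.0574% and 0.0772% in the controls and 0.123%, 0.0874%, 0.0833% and 0.0811% in the knockouts. Here control 1 lay above 2 of the 4 knockouts and the others lay below them all. The means were 0.0735% ± 0.0147 (SD, n = 3) and 0.0938% ± 0.0198 (SD, n = 4), a ratio of 1.27. The difference of 0.0202 percentage points was just above the SD of either group, and the log2 difference of 0.35 was 0.21 without knockout 1 and 0.18 without control 2. Without the genes whose exons overlap another gene, a setting chosen after seeing the data, the log2 difference was 0.09. Within a library, large subunit counts were 2.54, 2.47 and 2.48 times small subunit counts in the controls and 1.75, 2.54, 2.43 and 2.08 times in the knockouts. Knockouts 1, 3 and 4 were below all controls, knockout 3 only slightly, and knockout 2 lay inside their range. The counts behind knockout 1 were 63 and 36, and without it the log2 difference in this ratio was -0.09 in place of -0.2.

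The share also moved with what else was in a library. Lars2, the mitochondrial leucyl-tRNA synthetase, alone took between 3.25% and 16.6% of nuclear protein-coding counts, the most in control 2. With the 50 most abundant nuclear protein-coding genes left out of the denominator, the share of the 78 genes was 0.393% ± 0.0671 (SD, n = 3 controls) and 0.389% ± 0.0456 (SD, n = 4 knockouts). The ratio of the means was then 0.990, below the 1.15 found with them. The small subunit kept a ratio of 1.097 and the large subunit came to 0.947, with overlapping groups in each. With Lars2 and the cardiomyocyte markers left out, a setting chosen after seeing the data, the ratio for all 78 genes was 1.03. Counts of microRNAs and snoRNAs, divided by those of nuclear protein-coding genes, gave a log2 ratio from -2.44 in knockout 4 to 3.11 in knockout 2. The shares broadly rose with this ratio, in exact order among the controls but not over all libraries. Control 1 and knockout 2, which had the highest ratios, held 0.305% and 0.309%, and control 3 and knockout 3, with middle ratios, held 0.268% and 0.286%. Knockout 1 had the highest share at a ratio of 1.84, and knockout 4 had a lower ratio than control 2 and a higher share. The part of this composition in the shares was not tested.

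**Figure D2:**
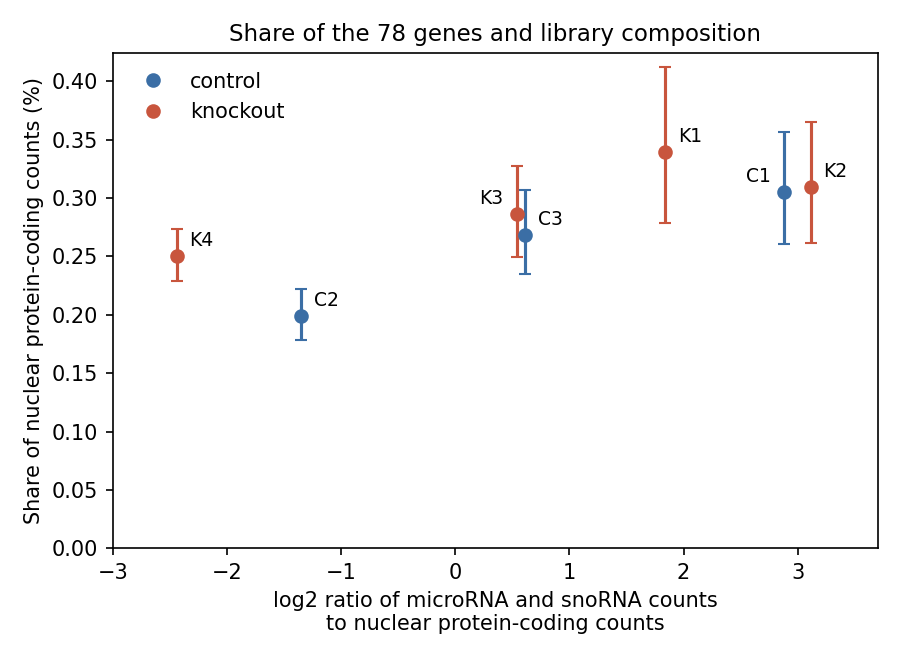
Share of nuclear protein-coding counts held by the 78 genes (%, y axis, Wilson 95% intervals) against the small RNA ratio, the log2 of summed microRNA and snoRNA counts over nuclear protein-coding counts (x axis), in the 3 controls (C) and 4 knockouts (K). The libraries with the lowest ratios, K4 and C2, also have the lowest shares, 0.250% and 0.199%.

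Fold changes of single genes were taken from edgeR's quasi-likelihood test on the whole table, with Benjamini-Hochberg adjusted p-values. Its default low-count filter kept 1505 features, of which 6.98% were called at an adjusted p under 0.05, and none of the 78 genes passed that filter. A lower minimum count of 3 let 26 of them in, the least counted of which had 17 counts, and gene values come from that fit unless another is named. There edgeR called 2.02% of the 4861 features tested and 0 of the 26 genes. An unadjusted p under 0.05 was found for 1 of the 26, against 16.3% of all features tested. Of the 26 log2 fold changes 13 were positive and 13 negative, and their median was -0.03, next to -0.02 over all features tested. With no filter 0 of 76 genes were called, beside 192 of all 15830 features, and the median was -0.06 next to -0.05 over all features. In that fit 3 of the 76 had an unadjusted p under 0.05, against 8.26% of all features. DESeq2 gave 13 genes an adjusted p and called 0, beside 191 of the 3563 features with an adjusted p. At an unadjusted p under 0.05 it had 2 of the genes and 4.76% of all features with a count.

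Standard errors of the 26 log2 fold changes ran from 0.37 to 1, with a median of 0.55. Among features with no more than the 77 counts of the most counted of these genes, edgeR called 40 of 3311, and the smallest log2 change so called was 1.63 in size. Power for smaller changes was not measured. The authors' deposited table gives log2 fold changes for 76 of the genes, from -1.81 to 1.32 with a median of -0.07, and the 20 with an adjusted p have none under 0.265.

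**Figure D3:**
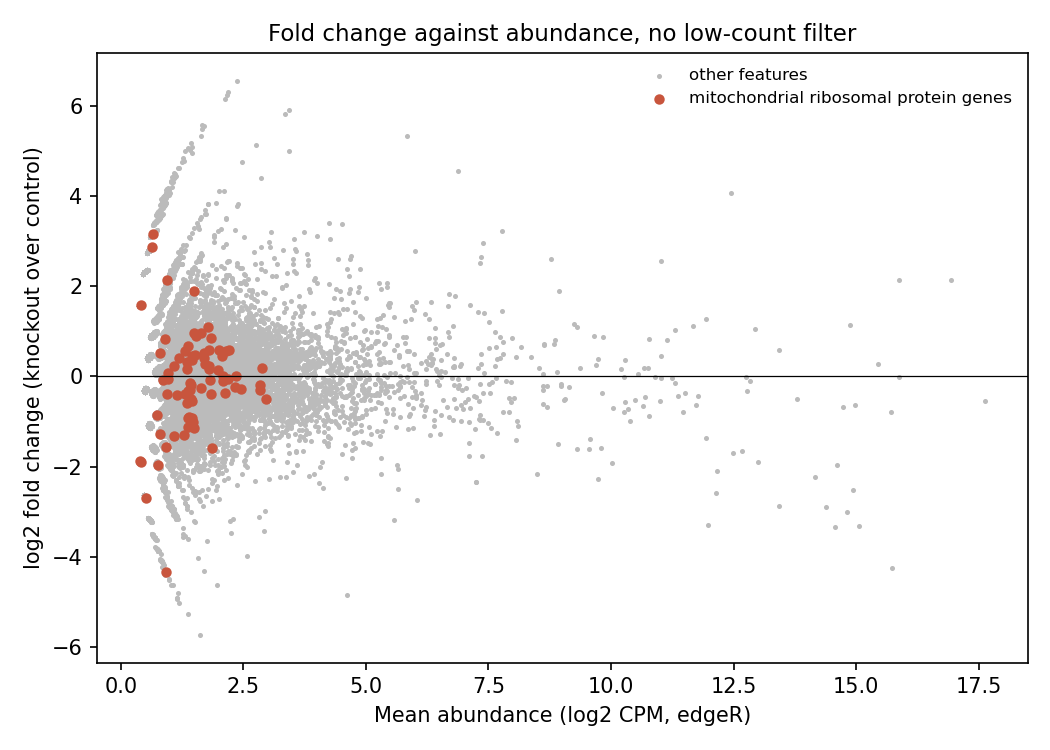
edgeR log2 fold change (knockout over control, y axis) against mean abundance (log2 CPM, x axis) for every feature with a count and no low-count filter, with the 76 mitochondrial ribosomal protein genes that had a count in red. The red points had few counts, with a median of 17 per gene against 12 for nuclear protein-coding genes with a count. They scatter about 0 with a median of -0.06, and the lowest is Mrpl36, whose knockout libraries were all at 0.

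Among large subunit genes, Mrpl12, a protein of the stalk that recruits translation factors to the ribosome, had the most counts. Its counts were 10, 13 and 14 in the controls, and 1, 6, 9 and 24 in the knockouts. Per 100000 nuclear protein-coding counts this was 19.6, 8.11 and 17.7 in the controls and 3.42, 13.4, 12.5 and 12.7 in the knockouts. Control 2 lay below 3 of the 4 knockouts, so the groups overlapped, and the edgeR log2 fold change was -0.52 ± 0.43 (SE; adjusted p = 0.608). Mrpl12 lies on chr11:120484613-120489065 (GRCm38, plus strand), where its exons overlap the antisense lincRNA Gm16755.

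Mrpl3, a relative of bacterial L3 near the site of peptide bond formation, had 4, 18 and 10 counts in the controls and 5, 8, 7 and 15 in the knockouts. Its log2 fold change was -0.19 ± 0.37, the smallest standard error of the 26. Mrpl42, which has no bacterial relative, had 9, 15 and 8 counts and then 4, 3, 8 and 23, with a log2 fold change of -0.30 ± 0.37. Both genes were within 1 standard error of no change. The counts of Mrpl37, another protein of the large subunit, were 5, 12 and 4 in the controls and 2, 1, 7 and 15 in the knockouts. Mrpl54, the highest gene per kilobase, had 5, 6 and 10 counts and then 4, 3, 8 and 8. Their log2 fold changes were -0.24 ± 0.46 and -0.30 ± 0.51, again within 1 standard error of no change.

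The other genes among the 12 with the most counts split in direction and none was called. Mrpl24, Mrpl28 and Mrpl35, relatives of bacterial ribosomal proteins, had log2 fold changes of 0.00 ± 0.55, -0.09 ± 0.62 and 0.17 ± 0.59. Mrpl44, a ribonuclease III-like protein of the large subunit, had no count in control 1 and knockout 1 and a log2 fold change of 0.59 ± 0.67. Mrpl1, a relative of bacterial L1, had 0.56 ± 0.70. Mrpl51 had 2, 9 and 2 counts in the controls and 3, 7, 4 and 11 in the knockouts, a log2 fold change of 0.59 ± 0.51. Its exons overlap the microRNA gene Mir3098 on the same strand, so in small RNA libraries the source of its counts is uncertain.

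Of the small subunit, Mrps23 had the most counts, with 4, 12 and 12 in the controls and 6, 4, 6 and 31 in the knockouts. Per 100000 nuclear protein-coding counts this was 7.83, 7.49 and 15.2 against 20.6, 8.97, 8.33 and 16.4. Knockouts 1 and 4 were above every control and knockouts 2 and 3 lay inside their range. The edgeR log2 fold change was 0.18 ± 0.43 (SE; adjusted p = 0.890). Its exons on chr11:88204388-88211507 (GRCm38, plus strand) overlap no other annotated gene.

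The largest positive fold change among the 26 was that of Mrps34, a small subunit protein with no bacterial relative. It had 2, 3 and 1 counts in the controls and 4, 3, 4 and 6 in the knockouts. In CPM, edgeR's normalised counts relative to library size, this was 1.33 ± 0.713 (SD, n = 3) against 3.28 ± 1.78 (SD, n = 4), with overlap through control 1 and knockout 4. The log2 fold change was 1.06 ± 0.63 (SE; edgeR adjusted p = 0.448), and its exons overlap Mapk8ip3 and Nme3. Mrpl58, a peptidyl-tRNA hydrolase that is built into the large subunit, had 0, 2 and 3 counts against 3, 5, 1 and 3, with a log2 fold change of 0.86 ± 0.97.

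At the other end were Mrpl16, Mrps17 and Mrpl14, all relatives of bacterial ribosomal proteins. Mrpl16 had 6, 7 and 5 counts in the controls and 1, 2, 1 and 4 in the knockouts, or 4.20 ± 1.89 CPM (SD, n = 3) against 1.31 ± 0.561 (SD, n = 4). Every control exceeded every knockout in CPM, the single gene of the 26 for which this was so, while 17.0% of all features tested were without overlap. As a share of nuclear protein-coding counts its groups overlapped, through control 2 and knockout 2. Its log2 fold change of -1.59 ± 0.55 (SE) had an unadjusted p of 0.0142 and an edgeR adjusted p of 0.169. Mrps17 had 2, 8 and 2 counts against 0, 0, 3 and 4, and Mrpl14 1, 6 and 3 against 0, 0, 3 and 4. Their log2 fold changes were -1.16 ± 0.75 and -0.91 ± 0.78, and in both knockout 3 lay above the lowest control.

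Of the 66 genes with at least 7 counts in all, 3 were without overlap in CPM, against 12.1% of all 9197 features with as many counts. They are named because of their values, and besides Mrpl16 they were Mrpl36 and Mrps2. Mrpl36, the relative of the small bacterial protein L36, had 2, 2 and 3 counts in the controls and 0 in each of the 4 knockouts. With a floor of 3 counts set for all knockouts together, its share of nuclear protein-coding counts was 2.69-fold lower than in the controls. That ratio is no lower bound, as it leaves out the counting error of the control counts and the spread between libraries. Without a filter the edgeR adjusted p of Mrpl36 was 0.165. Its exons overlap Ndufs6, a gene of complex I, on the other strand. Mrps2, a relative of bacterial S2, had 1, 4 and 1 counts against 2, 2, 4 and 8. Without a filter this came to 1.12 ± 0.510 CPM (SD, n = 3) and 2.42 ± 0.370 (SD, n = 4). The log2 fold change of Mrps2 in that fit was 0.96 ± 0.77, with an edgeR adjusted p of 0.672.

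**Figure D4:**
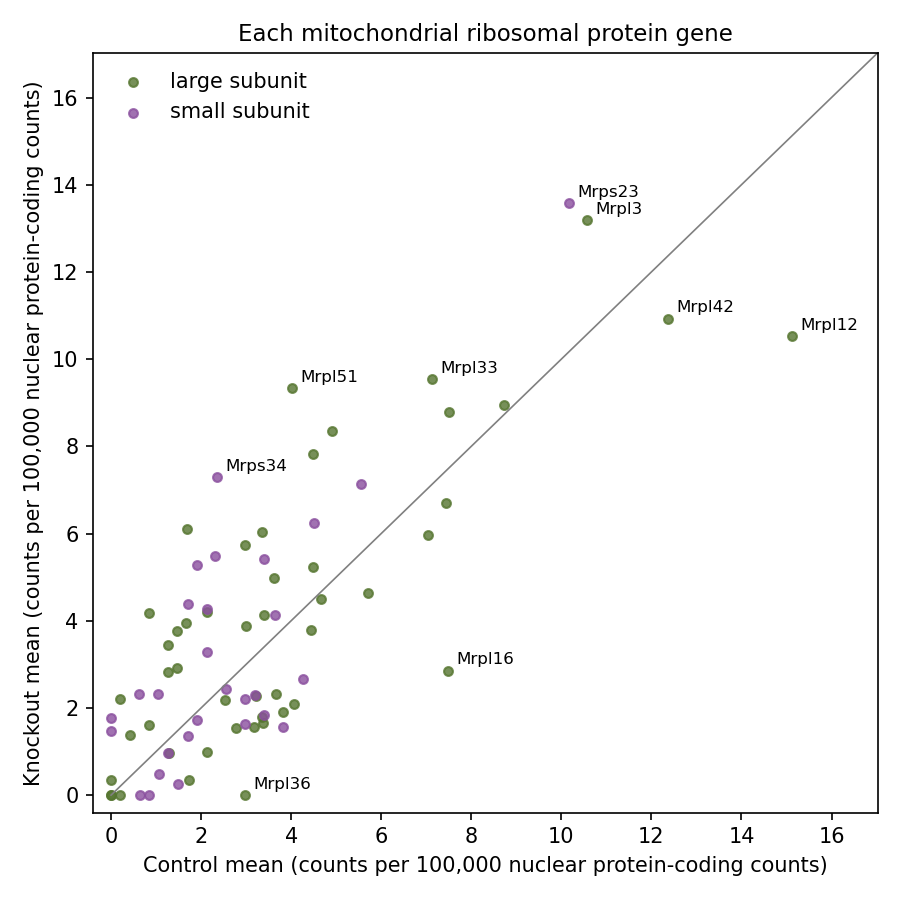
Mean counts per 100000 nuclear protein-coding counts of each of the 78 genes in controls (x axis, n = 3) and knockouts (y axis, n = 4), large subunit in green and small subunit in purple, with the line of equal means. Points lie on both sides of the line, 40 genes above it and 36 below, with Mrpl12 furthest right and Mrpl36 at 0 in the knockouts.

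The direction of single genes followed the scaling between libraries, as did that of all features. With TMM the median log2 fold change of the 26 genes was -0.03, and scaled to nuclear protein-coding counts it was 0.22 beside 0.24 over all features tested. Scaled to total counts it was 0.85 beside 0.96 over all features, and scaled to microRNA counts 1.02 beside 0.95. Under each of these scalings edgeR called 0 of the 26 genes.

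Genes that work with the ribosome were compared in the same way. Of 15 mitochondrial translation factors 7 could be tested at the lower minimum count and 0 were called. Lrpprc and Gfm1 also passed the default filter, from which their values are given. Lrpprc, which keeps mitochondrial mRNAs stable, had a log2 fold change of 0.29 ± 0.28 and the elongation factor Gfm1 -0.06 ± 0.37. The ribosome recycling factor Gfm2 had -0.22 ± 0.46 and Oxa1l, the insertase that receives new chains at the inner membrane, 0.19 ± 0.40. Summed, the 15 factors held 0.109% ± 0.0312 (SD, n = 3 controls) and 0.138% ± 0.0331 (SD, n = 4 knockouts), with overlap.

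Of 22 assembly factors 4 could be tested and 0 were called. C1qbp, a matrix protein needed for mitochondrial translation, had 0.52 ± 0.36 and the RNA helicase Dhx30 0.13 ± 0.41. The rRNA methyltransferases Mrm1 and Nsun4 had -0.80 ± 0.77 and -0.68 ± 0.57. The shares of this list were 0.0645% ± 0.0224 (SD, n = 3) and 0.0654% ± 0.0145 (SD, n = 4). Of 5 ribosomal proteins with names outside the series, 4 could be tested and 0 were called, Ptcd3 with -0.06 ± 0.66, Aurkaip1 with 0.55 ± 0.59, Dap3 with -0.20 ± 0.48 and Gadd45gip1 with 0.33 ± 0.68.

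The rRNAs of the mitochondrial ribosome were far more abundant in these libraries than the mRNAs of its proteins. mt-Rnr1 had a log2 fold change of 1.27 ± 0.86 and mt-Rnr2 of -0.40 ± 1.23, neither called by edgeR (adjusted p = 0.415 and 0.894 at the default filter). Before any scaling, mt-Rnr1 had 25818, 28786 and 23388 counts in the controls. It had 53763, 48690, 40002 and 45869 in the knockouts, each above every control. mt-Rnr2 had 466970, 208781 and 291537 against 294011, 219943, 114482 and 43266, with overlap. The TMM factors behind the edgeR values ran from 0.515 in knockout 1 to 3.277 in knockout 4. Cytosolic ribosomal protein genes, of which 66 of 87 had a count, held from 0.151% to 2.18% of nuclear protein-coding counts. That range was carried by Rpl7a, with 1739 counts. Without it, a setting chosen after seeing the data, the list held 0.131%, 0.127% and 0.144% in the controls and 0.161%, 0.226%, 0.197% and 0.152% in the knockouts, without overlap. Of the 12 tested at the lower minimum count 1 was called, Rpl3l, a form of L3 specific to striated muscle, with 6, 14 and 8 counts in the controls and 1, 0, 0 and 0 in the knockouts. Its share of nuclear protein-coding counts in the knockouts was 0.031 of that in the controls (exact 95% interval 7.58e-04 to 0.188, counting error only), with an edgeR adjusted p of 0.0173. The call was lost without control 2 (edgeR adjusted p = 0.104), control 3 (0.0923), knockout 3 (0.066) or knockout 4 (0.0525), and with scaling to total counts (0.219) or microRNA counts (0.994).

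Markers of other cells were summed in the same way, and of 4 lists 2 overlapped between groups. The 5 endothelial markers held 0.202% ± 0.0462 (SD, n = 3 controls) and 0.0997% ± 0.0309 (SD, n = 4 knockouts) of nuclear protein-coding counts. The 5 white blood cell markers held 0.0794% ± 0.0152 and 0.0502% ± 0.0161, and neither list overlapped between groups. Of single features tested at the minimum count of 3, 17.0% were without overlap in CPM. At the minimum count of 3, edgeR called 0 of the 5 endothelial markers. Cd74, an antigen presentation gene, was called by edgeR at the default filter with a log2 fold change of -2.12 ± 0.43 (adjusted p = 0.0342). Without Cd74, a setting chosen after seeing the data, the white blood cell list held 0.0515% ± 0.0146 and 0.0434% ± 0.0152, with overlap. Ptprc, a membrane phosphatase of white blood cells, had a log2 fold change of 1.65 ± 0.69 at the minimum count of 3 and was not called. The Cd74 call was lost without control 2 (edgeR adjusted p = 0.0989), control 3 (0.091), knockout 2 (0.102) or knockout 3 (0.0699), and with scaling to total counts (0.626) or microRNA counts (0.975). The 5 fibroblast markers held 0.600% ± 0.155 and 0.730% ± 0.304 and the 5 erythroid markers 0.0296% ± 0.00994 and 0.0197% ± 0.0144, both with overlap. All of these markers had counts, and their part in the shares of the ribosomal protein genes was not tested.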

How the data were processed

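Per the labels' protocols, small RNA libraries (Illumina kit) of crude heart mitochondria were read from a single end on a MiSeq. The samples hold 3 control and 4 knockout libraries. The authors deposited raw counts per gene, whole numbers that were used as they stand. The submitters' processing notes name DESeq2 1.14.1, R 3.3.2, featureCounts, bedtools, SAMtools 1.3.1, Bowtie2 and cutadapt 1.10, with the build mm10. The sources used here do not give the strand setting, the annotation release or the treatment of multi-mapping reads, so counts of genes with overlapped exons (33 of the 78) or pseudogenes are uncertain. 5 processed pseudogenes with such names, with 10 counts, were left out. Table columns deposited by the authors hold, per the file headers, a log2 fold change and a raw and adjusted p-value. The deposited normalised values were not used.

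Shares were summed counts over all nuclear protein-coding counts of a library, with Wilson 95% intervals. The gene test was that of edgeR 4.0.16 in R 4.3.3 (quasi-likelihood, TMM, 2 groups, no covariate, two-sided, default filter with a minimum count of 10, Benjamini-Hochberg over all features). Because that filter kept none of the 78 genes, gene values come from the planned minimum count of 3. Standard errors are the log2 fold change over the root of the F statistic. For some genes, Mrpl42 among them, the edgeR p is larger than this F implies, so their standard errors are too small for it. DESeq2 1.42.0 was the other tool. The procedure was also run on counts simulated from a pooled profile, without the differences in composition between these libraries. That run therefore does not measure its power here. Exon lengths, overlaps and coordinates come from GENCODE M21 (GRCm38), with coordinates for the 63 genes of the same identifier version.

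The genes and lists were chosen with earlier results of these data known, so sums over them carry no p. The rule for named genes took the 12 with the most counts, any called, and the 3 highest and 3 lowest fold changes among those tested, and from other lists those called and up to 4 with the most counts. Of 3 genes that tie at the last place by counts, Mrpl1 was taken by name order. Alternatives were other scalings, filters and denominators, a covariate, a replicate block and each library left out.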

Additional observations from a re-analysis of the deposited data

Results flagged for a closer look

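Groups of 4 libraries were searched for a library far from the others, in 21 values, and chance flags about 1 in 20. The small subunit share of knockout 1 was 0.123% of nuclear protein-coding counts, while the other knockouts lay between 0.0811% and 0.0874%. It rests on 36 counts, with a Wilson 95% interval from 0.0891% to 0.171%. Mrpl12 had 3.42 counts per 100000 nuclear protein-coding counts in knockout 1, from 1 count, and between 12.5 and 13.4 in the others. Knockout 1 had the fewest nuclear protein-coding counts of the 7 libraries, 29203.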

How the results depend on the processing

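The log2 difference in share (knockout minus control) was 0.22 for all genes, 0.15 for the large and 0.35 for the small subunit. As a mean over genes of log2(CPM + 1) it was -0.09, -0.11 and -0.06, and per all counts of the library 0.62, 0.56 and 0.75. The log2 large to small ratio differed by -0.2, and by 0 without genes with overlapped exons. With Mrps18a and Mrps30 moved to the large subunit and Mrps36 left out, the differences in share were 0.22, 0.18 and 0.3. The ratio then differed by -0.12. The other alternatives moved these values by less than 1 SD between libraries, but single libraries mattered to them. Without control 2 the differences in share were 0.04, -0.02 and 0.18, and without control 1 those of all genes and the large subunit were 0.35 and 0.29. Without knockout 4 the large subunit difference was 0.24. Without knockout 1 the small subunit difference was 0.21 and the ratio -0.09. Without the 50 most abundant genes in the denominator the differences were -0.01, -0.07 and 0.13. Under the 16 alternatives of the gene test, DESeq2 among them, 0 of the 78 genes were called, and most of these settings tested none of them. At the minimum count of 3, leaving out a library tested 18 to 37 of them and called 0. Over all features edgeR called 105, and 11 with scaling to total counts, 0 with scaling to microRNA counts (28 at an unadjusted p under 0.05), 192 with no filter, 191 with DESeq2 and 371 with the small RNA ratio as covariate. With 1 library left out it called 0 to 75, with 0 without control 2 (395 at an unadjusted p under 0.05) and 0 without control 3 (407). The cause was not tested. Same-numbered libraries correlated from -0.804 to 0.53 in their deviations, and in 0 of 3 pairs did both correlate best with each other. The highest correlation, 0.874, was that of control 2 and knockout 4, the libraries with the lowest small RNA ratios. A pairing could be hidden under such differences, so this check cannot exclude one. With the replicate block the differences in share were 0.29, 0.24 and 0.41 and edgeR called 0 features (338 at an unadjusted p under 0.05), so that Cd74 was no longer called (adjusted p = 0.0775), nor was Rpl3l at the minimum count of 3 (0.113). The mitochondrial ribosomal protein genes had at most 31 counts in a library, which limits every value of a single gene.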
